A study of Mus musculus with 6 samples.

Results

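Lipid droplet proteins were examined as a list of 10 genes among the 56305 in the table: the perilipins Plin2, Plin3, Plin4 and Plin5, the CIDE genes Cidea, Cideb and Cidec, the fat storage-inducing transmembrane genes Fitm1 and Fitm2, and the lipase inhibitor G0s2. The rule names the genes, and all 10 were found. RNA-Seq was done on whole livers of 5-week-old male mice, 3 WT and 3 Vps15LKO (AlbCre+;Vps15 f/f), collected at ZT6, that is, 6 h after lights on, under ad libitum feeding on standard chow. Each library came from 1 mouse. In Vps15LKO mice, Cre under the albumin promoter deletes Vps15, the regulatory subunit of the class 3 PI3K lipid kinase, in hepatocytes, so the deletion is chronic and liver cells that do not use this promoter keep the gene.

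Cells keep surplus fatty acids as triglyceride in lipid droplets, which bud from the endoplasmic reticulum under a single layer of phospholipid. FIT proteins act at that membrane and favour budding, perilipins coat the droplet and limit the access of lipases, and CIDE proteins sit where droplets touch and move lipid from the smaller to the larger. G0s2 inhibits Pnpla2 (also called ATGL), the lipase that starts triglyceride breakdown. In hepatocytes Plin2 is the main coat protein, Cideb also serves the loading of triglyceride onto very low-density lipoproteins, and Cidea and Cidec are best known from fat tissue and from fatty liver.

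Plin2, Plin3, Plin4 and Cidec were higher in Vps15LKO livers, and Plin5, Cideb, Fitm1, Fitm2 and G0s2 were lower. These 9 had at least 20 normalized counts in every liver and were tested, and 9 of 9 passed, 4 up and 5 down. A normalized count is the number of reads on a gene divided by a size factor of its library. A gene passed at an adjusted p under 0.05 in limma, with a fold of at least 1.2. This count has to be read against a genome in which 66.5% of the 15430 tested genes passed, 33.5% higher and 33.0% lower. The median size of the log2 change was 1.24 over the 9 genes and 0.62 over all tested genes. The values of the 3 WT and the 3 Vps15LKO livers did not overlap for any of the 10 genes, which was also so for 73.2% of all tested genes, 36.4% with Vps15LKO higher and 36.8% with Vps15LKO lower. Cidea held too few reads to be tested.

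The libraries held 16137093 to 18110223 reads on genes, but the size factors were 0.742 to 0.801 in WT and 1.23 to 1.41 in Vps15LKO. Scaling all libraries to equal read totals instead raised the median log2 change of all tested genes by 0.72, so 66.8% were then higher and 11.1% lower. The 9 genes kept their direction under this scaling, but Fitm2 and G0s2 no longer passed. Pik3r4, which encodes Vps15, was read at 507.8, 573.3 and 459.7 normalized counts in WT and 340.6, 362.2 and 355.1 in Vps15LKO (log2 change −0.54, SE 0.11, adjusted p = 0.00207), which turned to 0.19 at equal read totals (adjusted p = 0.164). A count over the whole gene does not separate the deleted exons from the rest, and cells other than hepatocytes add to it. The libraries also differed in markers of cell types. Of 10 hepatocyte markers 6 were lower, 4 did not pass and none was higher, and the list's summed normalized count did not overlap between genotypes (3453400 to 3790700 in WT and 1235800 to 1781300 in Vps15LKO). Of the markers tested, 9 of 10 for stellate cells and fibroblasts, 8 of 10 for macrophages and 7 of 7 for cholangiocytes were higher. Trem2, Gpnmb, Krt7, Epcam and Cftr among these were under 20 counts in at least 1 WT liver and passed the filter through Vps15LKO. With at least 20 counts in every liver 9, 6 and 4 markers were higher. The summed normalized counts of the 3 lists went from 10531–11337 to 30461–34357, from 6388–7261 to 21090–25540 and from 1269–1420 to 12343–23813. In whole liver, fewer cells of a type and less RNA per cell cannot be told apart.

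**Figure D1:**
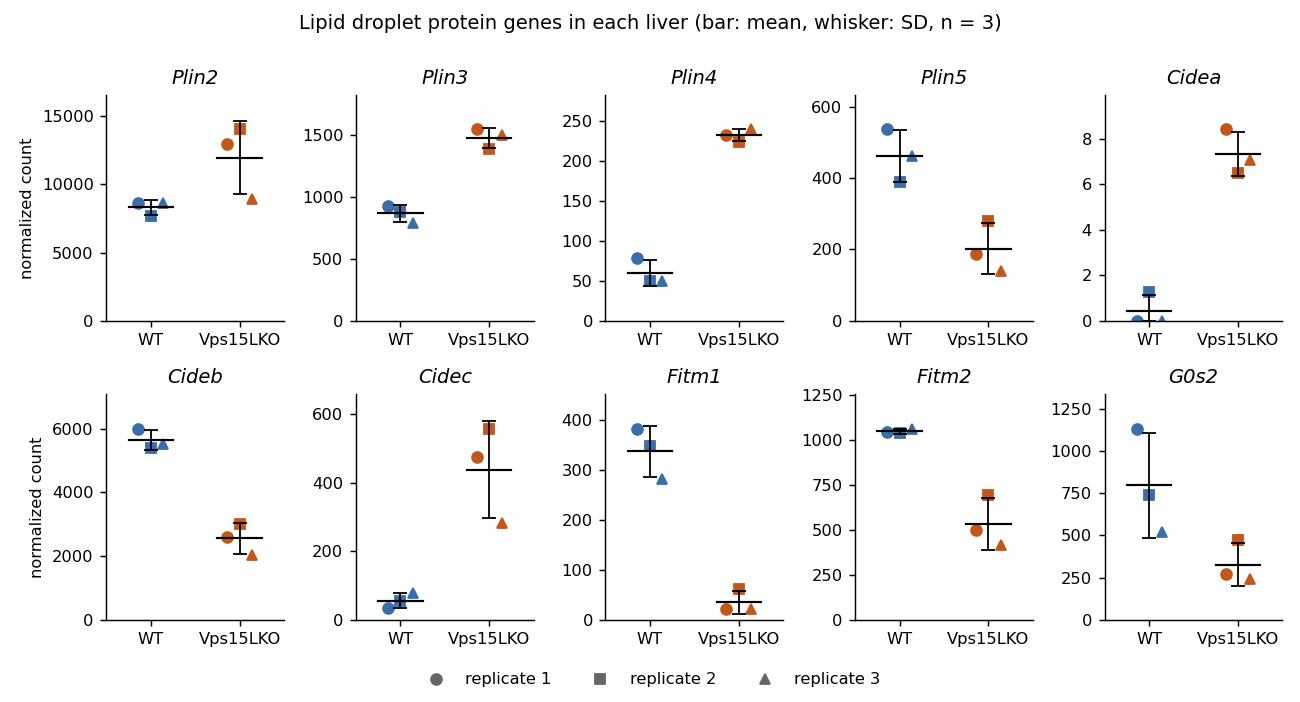
Normalized counts (linear vertical axes from 0) of the 10 lipid droplet protein genes in the 3 WT livers (blue) and the 3 Vps15LKO livers (orange), with 1 marker shape per replicate number, the mean as a bar and the SD as a whisker. Plin2, Plin3, Plin4, Cidea and Cidec lie higher in Vps15LKO and the other 5 lower, with no overlap in any panel, and Plin2 in Vps15LKO replicate 3 (8913) lies just above the highest WT liver (8661).

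The promoters of 3 genes are shown, Plin2 and Plin5 because these 2 perilipins differed in opposite directions, and Fitm1 because it had the largest change. Each runs from 250 bases before to 10 bases after the start of the gene in RefSeq (GRCm38.p6), at chr4:86670050-86670309 (minus strand), chr17:56117539-56117798 (minus strand) and chr14:55575424-55575683 (plus strand). Capitals mark letters found in a search of both strands. The windows searched reached further past the start than the stretches printed here. The letters were CACGTG (the E-box, which Bmal1–Clock and other factors bind), AGGTCA (the core that many nuclear receptors bind), the DR1 element of PPARs (2 such cores in the same direction with 1 base between), TGACNNNGC (the core of the antioxidant response element) and TATAAA.
Plin2: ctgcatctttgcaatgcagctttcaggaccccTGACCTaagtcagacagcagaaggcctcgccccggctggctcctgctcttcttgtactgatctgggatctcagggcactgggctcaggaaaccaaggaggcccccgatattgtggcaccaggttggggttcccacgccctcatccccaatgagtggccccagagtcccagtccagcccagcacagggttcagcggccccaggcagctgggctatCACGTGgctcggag
Plin5: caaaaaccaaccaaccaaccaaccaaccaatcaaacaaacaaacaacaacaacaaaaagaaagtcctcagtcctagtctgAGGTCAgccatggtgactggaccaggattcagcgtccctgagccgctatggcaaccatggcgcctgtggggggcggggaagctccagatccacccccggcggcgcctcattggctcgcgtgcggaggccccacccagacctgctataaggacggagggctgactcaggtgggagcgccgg
Fitm1: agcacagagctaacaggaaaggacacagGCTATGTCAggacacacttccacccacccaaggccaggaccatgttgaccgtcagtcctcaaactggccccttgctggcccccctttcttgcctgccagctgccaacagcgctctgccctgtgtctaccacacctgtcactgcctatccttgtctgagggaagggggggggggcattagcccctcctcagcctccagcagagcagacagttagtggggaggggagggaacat
Plin2 has CACGTG across its start, from base −4 to base 2, and the receptor core, read on the other strand as TGACCT, from −218 to −213. Plin5 has AGGTCA from −170 to −165 and, after the start of a further promoter entry not printed here, from 14 to 19. Fitm1 has the antioxidant core on the other strand, from −222 to −214. Cideb has TGACCAGGC from −17 to −9 and TATAAA from −172 to −167. None of these letters was found in the windows of Plin3, Plin4, Cidec, Fitm2 and G0s2, and no gene had the DR1 element. The same search over all 32851 promoters in the RefSeq table also used windows longer than the printed stretches. CACGTG was found in 7.15%, AGGTCA in 16.3%, the DR1 element in 0.0396%, TGACNNNGC in 12.4% and TATAAA in 13.6%. A match is a run of letters and not a measured binding site.

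Among the perilipins, Plin2 (chromosome 4, 86648386–86670060, minus strand, GRCm38) had the highest counts. In replicate order, WT livers had 8661, 7707 and 8602 normalized counts, and Vps15LKO livers had 12945, 14033 and 8913. Vps15LKO replicates 1 and 2 stood well above WT, whereas replicate 3 exceeded the highest WT liver only slightly. The log2 change was 0.50 (SE 0.18, 95% interval 0.08 to 0.91, adjusted p = 0.0373). Of the 9 tested genes Plin2 had the smallest change. Leaving out a single library moved it between 0.37 and 0.70, and it no longer passed without WT replicate 1 (adjusted p = 0.0739), 2 (0.12) or 3 (0.0591), or without Vps15LKO replicate 1 (0.135) or 2 (0.0964).

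Plin3, which is mostly cytosolic and moves onto young droplets, had a steadier rise. It had 929.5, 881.9 and 792.6 normalized counts in WT and 1547, 1387 and 1504 in Vps15LKO. The highest WT liver lay well below the lowest Vps15LKO liver, and the log2 change was 0.77 (SE 0.10, adjusted p = 0.000143). Leaving out a library moved it between 0.71 and 0.82.

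Plin4 and Plin5 are neighbours on the minus strand of chromosome 17, Plin4 at 56100591–56109803 and Plin5 at 56111601–56117596, with 1797 bases between them. They differed in opposite directions. Plin4, a perilipin with a long repeated helix that is known mainly from fat and muscle, had 78.23, 49.96 and 49.88 normalized counts in WT and 232.9, 224.5 and 239.8 in Vps15LKO. The Vps15LKO livers lay close together, and the log2 change was 1.98 (SE 0.19, adjusted p = 3.6e-05). Plin5, which ties droplets to mitochondria in tissues that oxidize fat, had 537.0, 388.5 and 462.4 normalized counts in WT and 186.3, 279.6 and 140.0 in Vps15LKO. Vps15LKO replicate 2 was nearest to WT, and the log2 change was −1.24 (SE 0.24, adjusted p = 0.00167). Plin3 lies further along the same strand of chromosome 17, at 56277476–56292873 and 159879 bases from Plin5.

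Counts of different genes can be set side by side only per length of exon, and such a ratio within a library does not depend on its size factor. Per kilobase, Plin2 made up 83.7% ± 1.05 (SD, n = 3) of the sum of the 4 perilipins in WT and 86.3% ± 2.52 in Vps15LKO, and its shares overlapped between genotypes. Plin5 made up 7.80% ± 0.773 in WT and 2.42% ± 0.461 in Vps15LKO, with no overlap. Plin4 went from 0.361% ± 0.0821 to 1.06% ± 0.269, also with no overlap, and remained the smallest share. Plin3 went from 8.12% ± 0.823 to 10.3% ± 2.54, with overlap. The sum itself was 2983, 2622 and 2889 normalized counts per kilobase in WT and 4224, 4535 and 3044 in Vps15LKO.

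**Figure D2:**
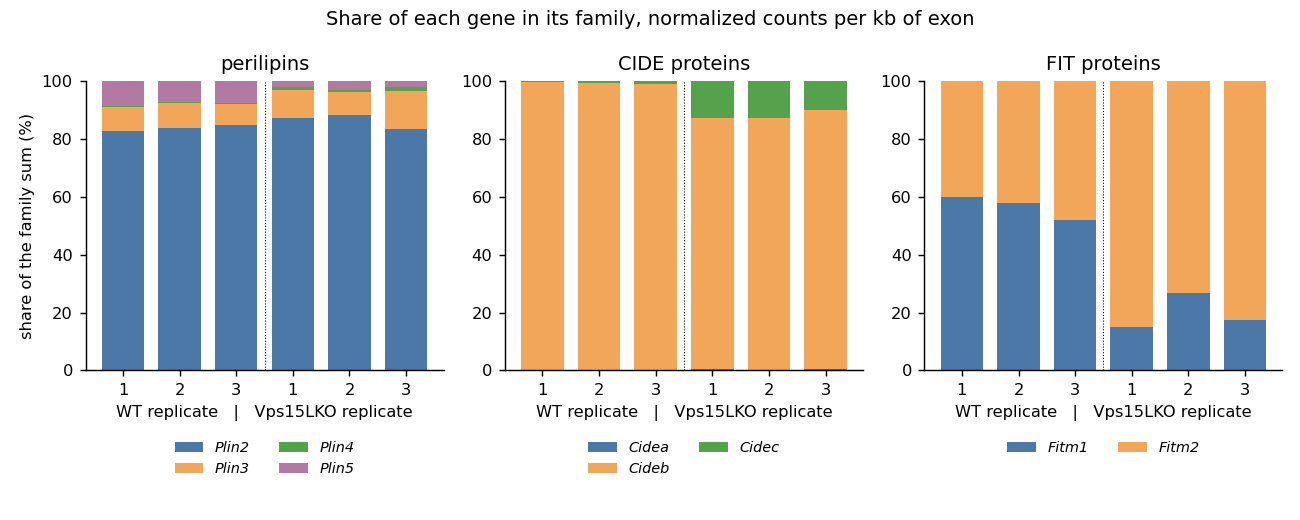
Share (%) of each gene in the sum of its family, from normalized counts per kilobase of exon, as stacked bars for each of the 6 livers. Cidec takes 9.97 to 12.9% of the CIDE sum in Vps15LKO livers and 0.441 to 1.12% in WT livers, Fitm1 gives way to Fitm2, and Plin5 has a smaller share of the perilipins in Vps15LKO.

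The CIDE genes also split. Cidec (also called Fsp27; chromosome 6, 113424634–113435760, minus strand), whose protein drives the growth of large droplets, had 33.1, 56.2 and 78.2 normalized counts in WT and 473.5, 557.5 and 282.9 in Vps15LKO. The lowest Vps15LKO liver was several times above the highest WT liver. The log2 change was 2.98 (SE 0.34, 95% interval 2.21 to 3.74, adjusted p = 8.5e-05), the largest rise among the 9 tested genes. It lay between 2.65 and 3.26 when any single library was left out.

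Cidea, on chromosome 18, stayed near the limit of detection. It had 0, 1 and 0 reads in WT libraries and 11, 8 and 10 in Vps15LKO libraries, or 0, 1.2 and 0 against 8.4, 6.5 and 7.1 normalized counts. Reads were present in all 3 Vps15LKO livers, and the ratio of the summed reads, corrected for the summed size factors, was 16.8 with an interval for counting error from 2.79 to 687. A two-sided exact permutation test gave p = 0.1, the smallest that 3 livers against 3 allow. In limma without the filter on low counts the adjusted p was 0.00125, at read numbers where the fitted change depends on the pseudocount.

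Cideb (chromosome 14, 55754050–55758458, minus strand) had 6007, 5397 and 5530 normalized counts in WT and 2614, 3020 and 2039 in Vps15LKO. All Vps15LKO livers lay far below WT, and the log2 change was −1.16 (SE 0.15, adjusted p = 0.00016). This value is uncertain as to the gene. Cideb shares 1136 exonic bases, 76.3% of its own exons, with Nop9 on the opposite strand. Nop9 had 90.9 to 91.9% as many reads as Cideb in WT libraries and 98.1 to 99.4% in Vps15LKO libraries, with a log2 change of −1.05. Whether the counting used strand is not given in the sources used here, so reads of the 2 genes cannot be told apart. With that limit, Cideb made up 99.2% ± 0.343 of the CIDE sum per kilobase in WT and 87.8% ± 1.54 in Vps15LKO, while Cidec went from 0.796% ± 0.341 to 11.8% ± 1.61.

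Fitm1 (chromosome 14, 55575617–55576954, plus strand) fell most. FIT1 is known chiefly from skeletal muscle and heart, but its gene was read in WT liver at 383.2, 348.5 and 281.7 normalized counts. In Vps15LKO livers it had 21.4, 61.6 and 21.2. Replicates 1 and 3 were nearly equal and replicate 2 was higher, still far below every WT liver. The log2 change was −3.42 (SE 0.38, 95% interval −4.28 to −2.56, adjusted p = 7.4e-05), and −2.70 at equal read totals. Of its exons, 11.2% overlap Gm15932 on the opposite strand, which had 317 to 1587% as many reads and a log2 change of −1.70. Without a known strand setting, part of the Fitm1 reads may belong to Gm15932. Of 12 striated muscle markers, 7 had 3 reads or fewer in every library of both genotypes, and Myh4 was at 0 in all 6. Acta1, the actin of skeletal muscle, had no read in WT libraries and 7, 3 and 18 in Vps15LKO libraries. Tnnt2, a troponin of heart muscle and the only one of the 12 that could be tested, was higher, at 13.3, 16.2 and 12.1 normalized counts in WT and 38.9, 21.1 and 36.8 in Vps15LKO (log2 change 1.12, adjusted p = 0.0114), and it passed the filter only through Vps15LKO. The summed normalized counts of the 12 were 25.6 to 32.5 in WT and 37.3 to 77.8 in Vps15LKO.

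Fitm2 (chromosome 2, 163466379–163472629, minus strand), the FIT gene used in most tissues, fell less. It had 1041, 1034 and 1061 normalized counts in WT and 495.6, 693.7 and 413.1 in Vps15LKO. WT livers were nearly identical and the Vps15LKO livers spread more, with a log2 change of −1.001 (SE 0.17, adjusted p = 0.000838). At equal read totals the change was −0.28 and did not pass (adjusted p = 0.0973). Only 5.72% of its exons overlap a gene on the other strand, 2310001K24Rik. Per kilobase, Fitm1 was the larger of the 2 FIT genes in every WT liver, with 56.7% ± 4.16 of their sum, and the smaller in every Vps15LKO liver, with 19.7% ± 6.15.

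G0s2 (chromosome 1, 193272161–193273217, minus strand) had 1134, 739.5 and 521.7 normalized counts in WT, a wide spread, and 271.9, 472.4 and 239.1 in Vps15LKO. The lowest WT and the highest Vps15LKO liver were close. The log2 change was −1.27 (SE 0.32, 95% interval −1.996 to −0.554, adjusted p = 0.00657), and −0.55 at equal read totals, where it did not pass (adjusted p = 0.0824).

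**Figure D3:**
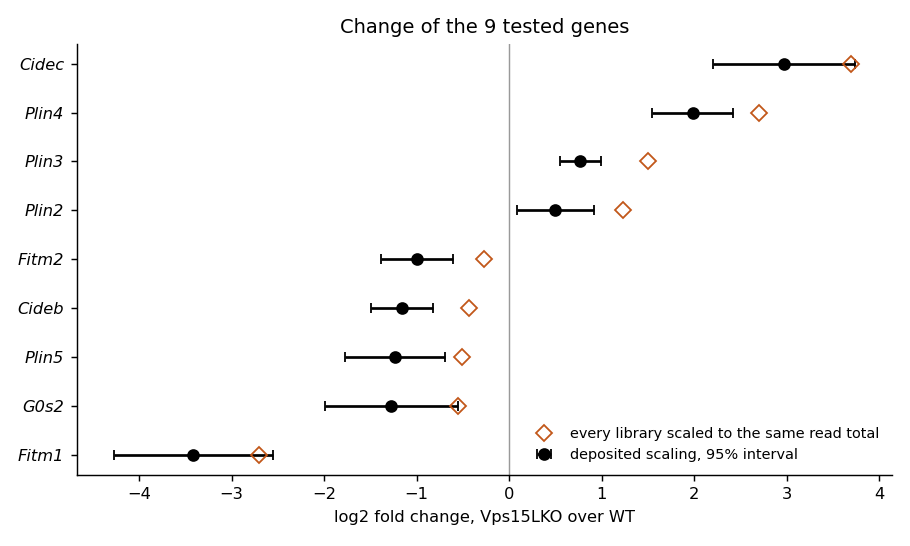
Log2 change from WT to Vps15LKO of the 9 tested genes with the deposited scaling (black, bars are 95% intervals from limma, 3 livers per genotype) and with every library scaled to the same read total (open orange diamonds). The diamonds lie about 0.72 to the right for all 9, no gene crosses 0, and Fitm2 at −0.28 comes nearest to it.

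By level per kilobase of exon, the order in WT was Cideb (3793), Plin2 (2370), G0s2 (917), Fitm1 (348), Fitm2 (264), Plin3 (229), Plin5 (222), Cidec (30.1), Plin4 (10.3) and Cidea (0.373). Of these neighbours, only Plin3 and Plin5 had overlapping ranges over the 3 WT livers. In Vps15LKO the order was Plin2 (3407), Cideb (1719), Plin3 (391), G0s2 (376), Cidec (236), Fitm2 (135), Plin5 (96.8), Plin4 (40.2), Fitm1 (35.8) and Cidea (6.56). The ranges of Plin2 and Cideb were apart in both genotypes, but the place of Cideb carries the doubt over Nop9 reads given above. The ranges of Plin3 and G0s2, of G0s2 and Cidec, of Cidec and Fitm2, of Fitm2 and Plin5, and of Plin4 and Fitm1 overlapped in Vps15LKO.

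For all 5 genes that were lower, Vps15LKO replicate 2 was the liver nearest to WT, as it was for the 6 hepatocyte markers that were lower and for 69.7% of the 5099 genes that were lower in all. For the 4 genes that were higher, replicate 2 was nearest for Plin3 and Plin4 and replicate 3 for Plin2 and Cidec, while over all 5163 higher genes the shares were 49.1% for replicate 2, 23.8% for replicate 3 and 27.1% for replicate 1.

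Set against the summed count of the 10 hepatocyte markers, of which Alb made up 50.2 to 62.0%, the genes behaved differently. This ratio was chosen after the values were seen and was not tested. Per 1000000 hepatocyte marker counts, Plin5 had 111 to 142 in WT and 113 to 157 in Vps15LKO, and G0s2 had 151 to 299 and 179 to 265, so both overlapped. Fitm1 lay lower, at 81.6 to 101 in WT and 14.1 to 34.6 in Vps15LKO. Cideb, at 1536 to 1601 and 1650 to 1725, and Fitm2, at 275 to 307 and 327 to 389, lay higher in Vps15LKO by this measure. Plin2, Plin3, Plin4, Cidea and Cidec lay higher by both measures, Plin2 at 2193 to 2491 in WT and 7213 to 8544 in Vps15LKO. The part of the hepatocyte markers in these results was not tested.

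**Figure D4:**
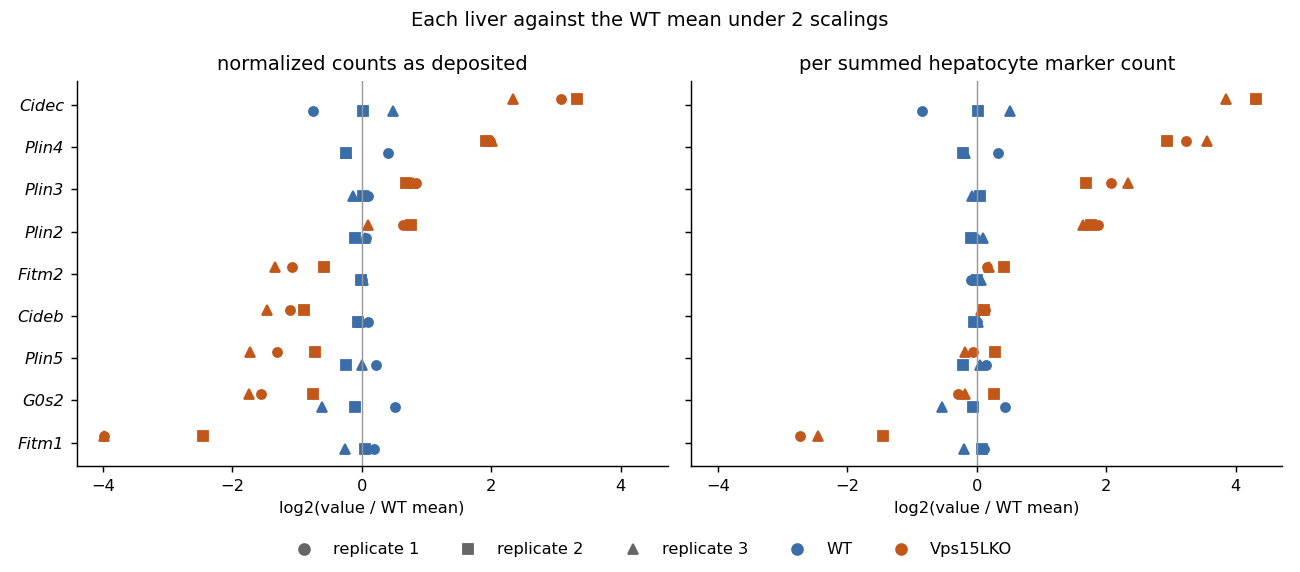
Log2 of each liver's value over the WT mean for the 9 tested genes, from normalized counts as deposited (left) and from the same counts divided by the summed count of 10 hepatocyte markers (right), with blue for WT, orange for Vps15LKO and 1 marker shape per replicate number. In the right panel Plin5 and G0s2 overlap between genotypes, Cideb and Fitm2 lie just right of WT, and Fitm1 still lies left of all WT livers.

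Cidea, Cidec and Plin4 are abundant in fat tissue, so the markers of fat cells are given beside them. Plin1, the perilipin of fat cells, had 1.3, 3.7 and 8.1 normalized counts in WT and 0, 0.8 and 0 in Vps15LKO. Adipoq, which encodes adiponectin, had 1.3, 5.0 and 17.5 in WT and 0, 3.2 and 0 in Vps15LKO. Lep, Retn and Ucp1 had no more than 1 read in any library. The summed count of the 8 fat cell markers was 122 to 256 in WT and 161 to 189 in Vps15LKO, and of the 2 that could be tested Fabp4 was higher and Adrb3 lower. Adrb3 passed the filter only through WT. Fabp4, with 83.7 to 145.6 in WT and 152.8 to 175.6 in Vps15LKO, made up most of the sums, and its call was lost with quantile normalization, with a fold of at least 2 and without WT replicate 1, WT replicate 2 or Vps15LKO replicate 1. Opposite to Fabp4, the means of Plin1, Adipoq, Cfd (12.8 in WT and 4.51 in Vps15LKO) and Adrb3 (37.0 and 7.40) were lower in Vps15LKO. The sums, which overlapped, therefore mix Fabp4 with markers that went the other way. The part of fat cells in these results was not tested.

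The other genes of droplet biology were taken as lists, each with its count. Of 18 tested genes for the droplet surface and assembly, 14 were lower, 2 higher and 2 did not pass (median log2 change −0.54, against −0.02 over all tested genes). Over all tested genes 33.0% were lower and 33.5% higher. At equal read totals 4 of the droplet surface genes were lower and 8 higher, against 11.1% and 66.8%. The direction of this list thus rests on the scaling. Mettl7b, a methyltransferase-like droplet protein, had the highest mean count over the 6 livers and the largest fall, from 13388 ± 1379.7 to 4888 ± 1466 normalized counts (SD, n = 3; log2 change −1.49). Lpcat1, which makes phosphatidylcholine for the surface, had the largest rise (log2 change 1.94). Bscl2, which encodes seipin and was picked after its value was seen, had −0.96. Hsd17b13, a liver droplet protein also picked so, did not pass (log2 change −0.06, adjusted p = 0.735).

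Of 11 tested genes of triglyceride hydrolysis, 7 were lower, 1 higher and 3 did not pass (median −0.71). Over all tested genes 33.0% were lower and 33.5% higher. At equal read totals 5 of the hydrolysis genes were lower and 5 higher, against 11.1% and 66.8%. Among these the partners of G0s2 were picked after their values were seen. Pnpla2, the lipase that G0s2 inhibits, did not pass (log2 change −0.09, adjusted p = 0.417), nor did its activator Abhd5 (0.04, adjusted p = 0.74), with the deposited scaling. Hilpda, another inhibitor of Pnpla2, had 23.87, 19.99 and 17.52 normalized counts in WT and 128.3, 113.5 and 108.9 in Vps15LKO. It was the only tested gene of this list that passed as higher (log2 change 2.46, adjusted p = 1.2e-05), opposite to G0s2. Hilpda passed the filter only through the Vps15LKO livers. Pnpla3, also of this list and picked after its value was seen, held too few reads to be tested. Its counts were higher in every Vps15LKO liver than in any WT liver. Ces3a, a carboxylesterase, had the highest mean count over the 6 livers and the largest fall (log2 change −4.55), though near-identical carboxylesterase genes can share its reads. It had 45648, 41196 and 52765 normalized counts in WT and 1371, 7394 and 767 in Vps15LKO, and its change was −5.50 without Vps15LKO replicate 2 and −3.86 without replicate 3.

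Of 16 tested genes of triglyceride synthesis, 9 were lower and 5 higher (median −0.70), against 33.0% and 33.5% of all tested genes. At equal read totals 6 synthesis genes were lower and 6 higher, against 11.1% and 66.8%. Acsl1, which activates fatty acids and had the highest mean count over the 6 livers, fell most, from 31437 ± 1257 to 3639 ± 1523 (log2 change −3.19), and Mogat2, which makes diglyceride, had the largest value above 0, from 6.92 ± 1.69 to 66.5 ± 15.6 (log2 change 3.09). Mogat2 entered the test only through the Vps15LKO livers, and with at least 20 counts in every liver 4 synthesis genes were higher. Dgat2, picked after its value was seen, makes the final triglyceride and had −2.09. Of 12 genes of fatty acid uptake and binding, 6 were higher and 6 lower (median 0.11), against 33.5% and 33.0% of all tested genes. At equal read totals 7 uptake genes were higher and 4 lower, against 66.8% and 11.1%. Fabp1, the fatty acid binding protein of hepatocytes, had the highest mean count and fell most (log2 change −2.84), and Lpl, the lipoprotein lipase, rose most (3.07), from 411.0, 518.4 and 1593 to 6461, 5843 and 5387. The change of Lpl was 3.67 without WT replicate 3. Without Vps15LKO replicate 1, only 3 passed as higher.

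**Figure D5:**
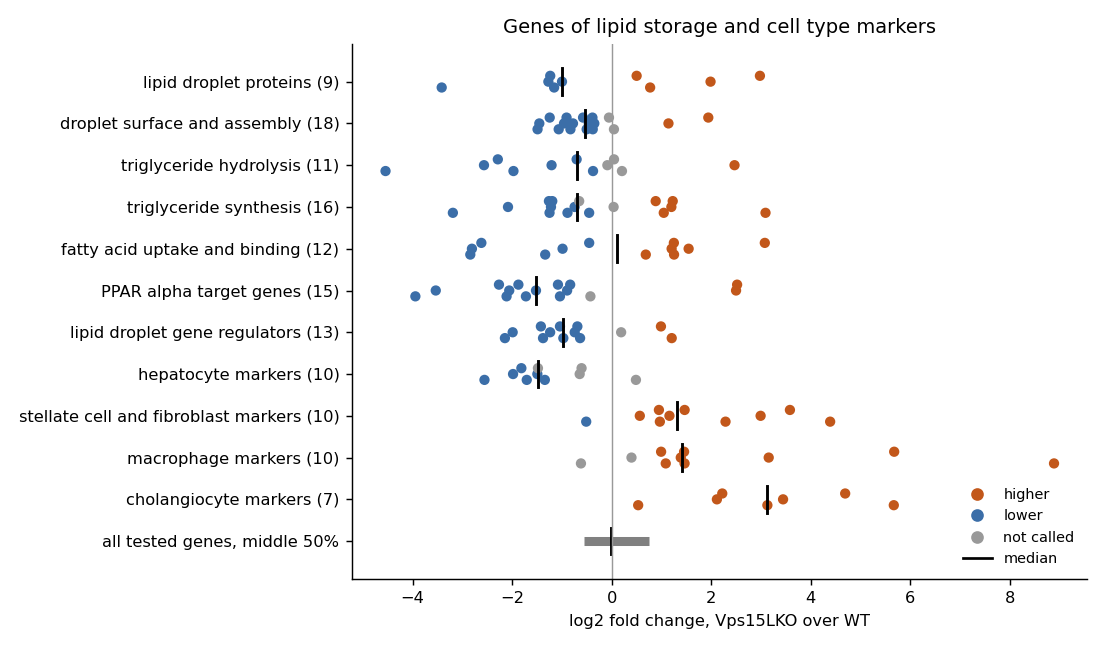
Log2 change from WT to Vps15LKO of each tested gene (points, number per list in brackets) in the lists of lipid storage and of cell type markers, with blue for lower, orange for higher and grey for not called, black bars as medians, and a grey bar for the middle 50% of all tested genes. The lipid droplet proteins spread from −3.42 to 2.98, while the PPAR alpha target genes (median −1.52) lie mostly left of 0 and the cholangiocyte markers (median 3.13) all lie right of it.

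Several genes on the list are known targets of PPARs, nuclear receptors that respond to fatty acids, so regulators and targets were read beside them. Of 15 PPAR alpha target genes outside the list, 12 were lower, 2 higher and 1 did not pass (median −1.52). Over all tested genes 33.0% were lower and 33.5% higher. At equal read totals 8 of the targets were lower and 2 higher, against 11.1% and 66.8%. Cyp4a14, a fatty acid hydroxylase, fell most (log2 change −3.95, −4.70 without Vps15LKO replicate 2 and −3.25 without replicate 3), and Pdk4, which restrains the use of glucose, rose most (2.52). Creb3l3 (log2 change −1.04) is counted as lower both among the PPAR alpha targets and among the regulators. Of 13 regulators, 10 were lower, 2 higher and 1 did not pass (median −0.97), with 5 lower and 3 higher at equal read totals. The shares over all tested genes are those given for the targets. Hnf4a, a master factor of hepatocytes, had the highest mean count (−1.38), and Mlxipl, which encodes the carbohydrate-responsive factor ChREBP, fell most (−2.15). Pparg, which drives Cidec and Plin4 in fat cells, had 315.6, 316.0 and 151.0 normalized counts in WT and 573.5, 625.6 and 516.3 in Vps15LKO and rose most (log2 change 1.203, adjusted p = 0.00351). Ppara, picked after its value was seen, had −1.99 (adjusted p = 3.5e-05).

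For the 3 tested genes with the largest changes, the genes outside the list with the most similar pattern were sought, by the root mean square distance of their centred log2 values over the 6 livers. For Fitm1 these were Lrit1 (0.165), Gm12909 (0.198) and Ugt3a2 (0.211). For Cidec they were Tlr9 (0.230), Slc8a1 (0.252) and Cd40 (0.272), and for Plin4 A530040E14Rik (0.0634), Hspb1 (0.0999) and Krt23 (0.102). Within a distance of 0.25 lay 193 genes for Plin4, 5 for Fitm1 and 1 for Cidec, so the pattern of Plin4 was a common one. Cd40 and A530040E14Rik passed the filter on low counts only through the Vps15LKO livers and Gm12909 only through the WT livers. All 6 points of each pattern come from the same 6 libraries.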

How the data were processed

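RNA-Seq of 3 WT and 3 Vps15LKO livers was analysed. The authors used SOAPnuke to filter reads, HISAT2 to map them to GRCm38, featureCounts to count and DESeq2 to normalize. Versions, strand and multi-mapping settings are not given in the sources used here. The deposited values are a signal, the normalized read count per gene. All values were whole multiples of 1 read within 0.02, so reads were recovered (16137093 to 18110223 per library).

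The 15430 genes that reached 20 normalized counts in 3 or more livers were compared on log2(deposited value + 1) with limma 3.58.1 (lmFit, eBayes with a trend; R 4.3.3) and Benjamini-Hochberg adjustment over all of them, so fold changes are on that scale. edgeR 4.0.16 and DESeq2 1.42.0 on recovered reads were alternatives. The fit was also run on simulated data in which few genes changed, as many up as down. In these livers 66.5% of the tested genes passed, a setting that the simulation does not cover. P-values measure the spread between these mice, and replicates of a genotype differed by more than counting noise. The intervals for read counts cover counting error only.

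The 10 genes and the other lists were chosen with earlier results of these data known. Named are the 10 genes, Pik3r4, from each lipid list the tested gene with the highest mean and the called genes with the largest rise and fall, and the closest patterns; 1 gene that this rule names is not reported here. Coordinates come from GENCODE M21 and promoters from RefSeq (GRCm38.p6), where 9 of the 10 genes matched. Of 20 genes for the droplet surface, 19 were matched. Of the marker lists, the stellate cell list also had 1 gene lower.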

Additional observations from a re-analysis of the deposited data

How the results depend on the processing

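Over 21 alternatives (other tests, filters, pseudocounts, scalings, the replicate block, a fold of at least 2 and leaving out each liver), the 9 tested lipid droplet genes gave 189 values. All kept their direction and 178 kept their call. Of the 11 lost calls 8 were of Plin2, including those with no filter (adjusted p = 0.0514) and with upper-quartile scaling (adjusted p = 0.0751). With a fold of at least 2, 5185 genes passed (3228 higher and 1957 lower), with 2 droplet protein genes higher, 4 droplet surface genes lower, and 1 regulator higher and 6 lower. At equal read totals 10300 genes were higher and 1712 lower, 3 droplet protein genes were lower, 8 droplet surface genes were higher and 4 lower, 5 hydrolysis genes were higher, 5 regulators were lower, and Pik3r4 turned to 0.19. Of the hydrolysis genes, 2 were higher with no filter, 0 with at least 20 counts in every liver (where Hilpda is not tested) and 3 with quantile normalization. Of the PPAR alpha targets 1 was higher with at least 20 counts in every liver. Unless the setting itself shows it, the cause was not tested.

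Leaving out each liver gave 9098 to 10222 genes called, 8 to 9 droplet protein genes, and 3 to 5 uptake genes higher. Livers that share a replicate number did not deviate together (correlations −0.01, −0.01 and 0.05). With 3 livers per genotype this cannot exclude a pairing. With the replicate block 10048 genes and 9 droplet protein genes passed.

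Depth limits Cidea, with at most 11 reads in a library. The fit with a trend rests on few genes at the highest counts, where Alb (log2 change −1.48, adjusted p = 0.366) did not pass, and without a trend 9 of the 10 hepatocyte markers were lower and 1 higher. With quantile normalization 3 of them were lower and 1 higher.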
